A study of Nasonia vitripennis x Nasonia giraulti with 2 samples.

Results

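The F1GV hybrid is the daughter of a Nasonia giraulti (Ng) mother and a Nasonia vitripennis (Nv) father, so its V allele is paternal and its G allele is maternal. Methylation of the V allele was compared with that of the G allele within this hybrid at every CpG of its library with a pooled V and G level of at least 10%, including the CpGs that the library of the reciprocal hybrid F1VG (Nv mother, Ng father) does not list. This rule kept 150528 (2.31%) of the 6527248 CpGs listed in F1GV, out of 6800558 listed in either library. Both hybrids came from strain AsymCX of Nv and strain R16A of Ng, and each WGBS-seq library (whole-genome bisulfite sequencing) was made from the whole bodies of 50 pooled adult females taken 24 h after eclosion. Each cross has 1 library, so the values have no replicate error, the tests compare reads and not wasps, and whole-body pools average over all tissues. Within F1GV the species of an allele and the parent that passed it on cannot be told apart.

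Bisulfite turns unmethylated cytosine into a base read as T and leaves methylated cytosine as C, so the share of unconverted reads at a CpG is its methylation percentage. Nasonia carries a full set of DNA methyltransferases, and as in many insects its methylated CpGs are few, cluster in the bodies of genes and lie beside long stretches with almost none. In Nasonia, males develop from unfertilised eggs and females from fertilised ones, so a hybrid daughter holds 1 genome from each species and both alleles are read in the same nuclei. Allele-specific methylation (ASM) is a difference in level between those alleles. Va and Ga are the levels of the V and the G allele, and Va minus Ga is their difference in percentage points.

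The counts at the CpGs of F1GV summed to 371795018, with a median of 55 reads per listed CpG, of which 24 were assigned to V and 23 to G. In F1VG they summed to 286833473, with a median of 47 reads. The tested CpGs were shallower, with a median of 18 V reads (quartiles 13 to 26) and 18 G reads (12 to 26), and V made up 50.2% of their allele reads. Of the tested CpGs, 27.9% were absent from F1VG, against 15.3% of all CpGs listed in F1GV. At 8 tested CpGs the sum of V and G counts was larger than the total count.

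V was methylated at a higher level than G on average, by a small margin beside the spread across CpGs. Va was 38.1% ± 34.4 (SD across 150528 CpGs) with a median of 22.2%, and Ga was 34.8% ± 33.2 with a median of 20.0%. The mean of Va minus Ga was 3.30 ± 25.9 points, with a median of 1.52 and quartiles of −13.5 and 17.6. V was higher at 52.2% of the tested CpGs, G was higher at 45.6% and both were equal at 2.22%. With all reads pooled, 42.9% of the V reads and 39.1% of the G reads were methylated at the tested CpGs. At the listed CpGs under the 10% limit the order was the opposite and the levels were low, with 1.58% of the V reads and 1.68% of the G reads methylated. Without the limit the mean of Va minus Ga over all listed CpGs was −0.0252 points.

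The V and G levels fell into a few combinations. A level under 10% is called bare here, one from 10% to under 60% partial, and one of at least 60% high. Both alleles were high at 35430 CpGs (23.5% of those tested), of which 274 were called below. CpGs with one bare and one partial allele were almost evenly split, 36375 with V partial and 36418 with G partial, although 2829 of the former and 1336 of the latter were called. Such CpGs pass the 10% limit through their partial allele alone, so the filter itself shapes these classes. The classes with one high allele were uneven. V was high and G bare at 4418 CpGs, and G was high and V bare at 1543. V was high and G partial at 7938 CpGs, against 4414 for the reverse.

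**Figure D1:**
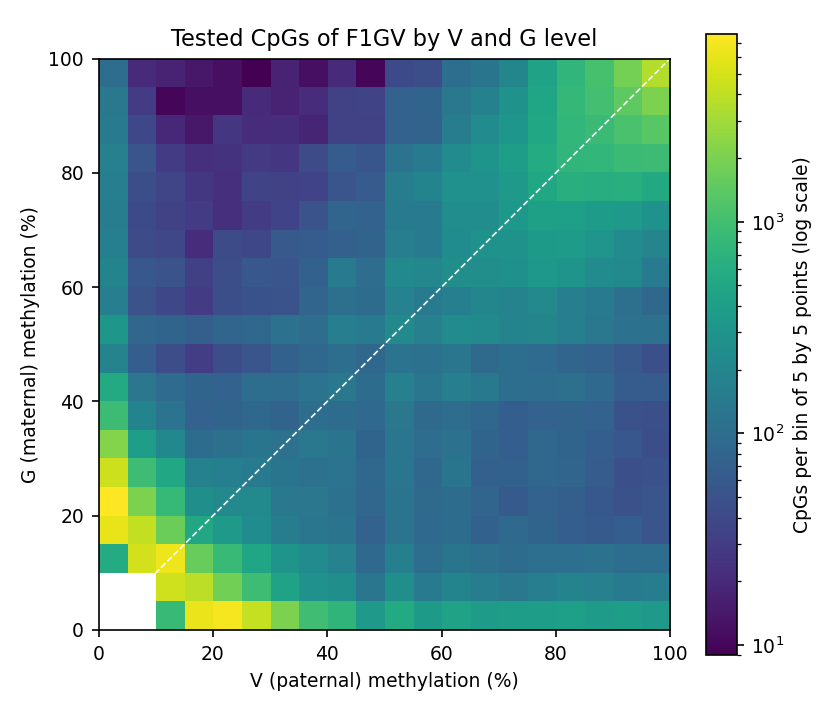
V level (x axis, %) against G level (y axis, %) of the 150528 tested CpGs of F1GV, counted in bins of 5 by 5 points on a log colour scale, with equality as a dashed line. The CpGs gather in the corner where both alleles are high and along the low edge of each axis, and the lower right corner (V high, G bare, 4418 CpGs) is fuller than the upper left one (G high, V bare, 1543 CpGs). Along the low edges CpGs pass the level limit through their more methylated allele alone.

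Fisher's exact test (two-sided, Benjamini-Hochberg adjustment over all 150528 tested CpGs) called 14519 ASM-CpGs at an adjusted p under 0.05, which is 9.65% of those tested. V was higher at 10480 of them (6.96% of the tested CpGs) and G at 4039 (2.68%), so V was the more methylated allele at 72.2% of the ASM-CpGs (Wilson 95% interval 71.4 to 72.9, for counting error only, with CpGs taken as independent). At an unadjusted p under 0.05 the number was 29179.

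The difference was at least 80 points at 19.4% of the V-higher and 15.2% of the G-higher ASM-CpGs. Where V was higher, the median difference was 60 points (quartiles 45 to 75.8), with a mean Va of 70.9% ± 20.6 and a mean Ga of 10.2% ± 14.9 (SD across CpGs). Where G was higher, the median difference was 55.3 points (41.2 to 71.9), with a mean Va of 10.6% ± 16.6 and a mean Ga of 67.4% ± 21.2. No methylated read was seen on the less methylated allele at 37.9% of the V-higher and 45.7% of the G-higher ASM-CpGs. Whether the sequence of the less methylated allele holds a CpG at these positions was not tested, since no genome sequence was used here.

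The CpGs with the smallest p in each direction show what such differences look like in reads. At SCAFFOLD614 position 3354 all 48 V reads (100%, Wilson 92.6 to 100) and 2 of 97 G reads (2.06%, 0.567 to 7.21) were methylated (exact test, adjusted p = 2.7e-31). Its neighbour at position 3332 had 40 of 41 V reads and 1 of 99 G reads methylated. Both CpGs were covered by more than 2 times the median depth, with 145 and 141 reads, and by more G than V reads. At SCAFFOLD6 position 1112327, 63 of 65 V reads and 1 of 57 G reads were methylated. In the other direction, at SCAFFOLD494 position 42420 none of 48 V reads (0 to 7.41%) and all 47 G reads (92.4 to 100%) were methylated (exact test, adjusted p = 5.8e-24). Nearby, at position 42394, the counts were 0 of 51 and 39 of 40. At SCAFFOLD1 position 9158820, 2 of 68 V reads and 47 of 48 G reads were methylated (exact test, adjusted p = 1.5e-24). This CpG and the one named on SCAFFOLD6 were also above 2 times the median depth, with 118 and 122 reads.

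These 6 CpGs lie in 4 runs of methylated CpGs that are built differently. On SCAFFOLD614 all 4 CpGs of the run were V-higher ASM-CpGs, with Va from 58.3% to 100% and Ga from 0% to 2.06%. On SCAFFOLD6 all 12 CpGs of the run from 1110973 to 1112445 were V-higher ASM-CpGs, with Va from 43.6% to 96.9% and Ga at or under 7.41%. On SCAFFOLD494 the run of 6 CpGs held 4 G-higher ASM-CpGs. On SCAFFOLD1 the run from 9157992 to 9159081 was high on both alleles, with a mean Va of 73.6% and Ga of 90.8%, and its 3 ASM-CpGs sat together within 22 bp at 9158820, 9158833 and 9158842. There V fell to 2 of 68, 9 of 62 and 15 of 53 methylated reads, while G stayed at 47 of 48, 50 of 52 and 47 of 48. The next CpG, 35 bp on, had 22 of 26 V reads and 23 of 28 G reads methylated. In F1VG the same 3 CpGs had 1 of 32, 0 of 32 and 4 of 31 methylated V reads and 41 of 42, 37 of 41 and 36 of 40 methylated G reads.

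The share of tested CpGs called varied with the pooled methylation level, which itself limits how far the alleles can differ. Pooled levels near either end leave room only for smaller differences, so the shares do not show at which level differences are commoner. The share called was 2.24% at a pooled level of 10 to 20%, where 81234 of the tested CpGs lie. It was 29.1% at 20 to 30%, and 48.4% at 30 to 40%, the bin with the highest share. It fell to 46.9% at 40 to 50%, 33.5% at 50 to 60% and 16.3% at 60 to 70%. In the highest bin, 90 to 100%, 26 of 13497 CpGs (0.193%) were called. V was the higher allele at 63.0% of the ASM-CpGs at 10 to 20%, at 76.2% of those at 50 to 60% and at 65.3% of those at 80 to 90%, so its majority held in each of these bins and was largest in the middle.

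Depth limited what could be called. With 8 reads on each allele, 7 methylated reads against none (87.5 points) were needed, and with 18 on each, 8 against none (44.4 points). At the real depths 3.44% of the CpGs with 8 to 11 reads on the shallower allele were called and 23.8% of those with at least 32, while the median size of a called difference fell from 72.7 to 46.6 points. V was higher at 67.6% of the ASM-CpGs in the shallowest and at 71.6% in the deepest group. An uncalled CpG at the median depth is therefore not shown to have equal alleles.

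**Figure D2:**
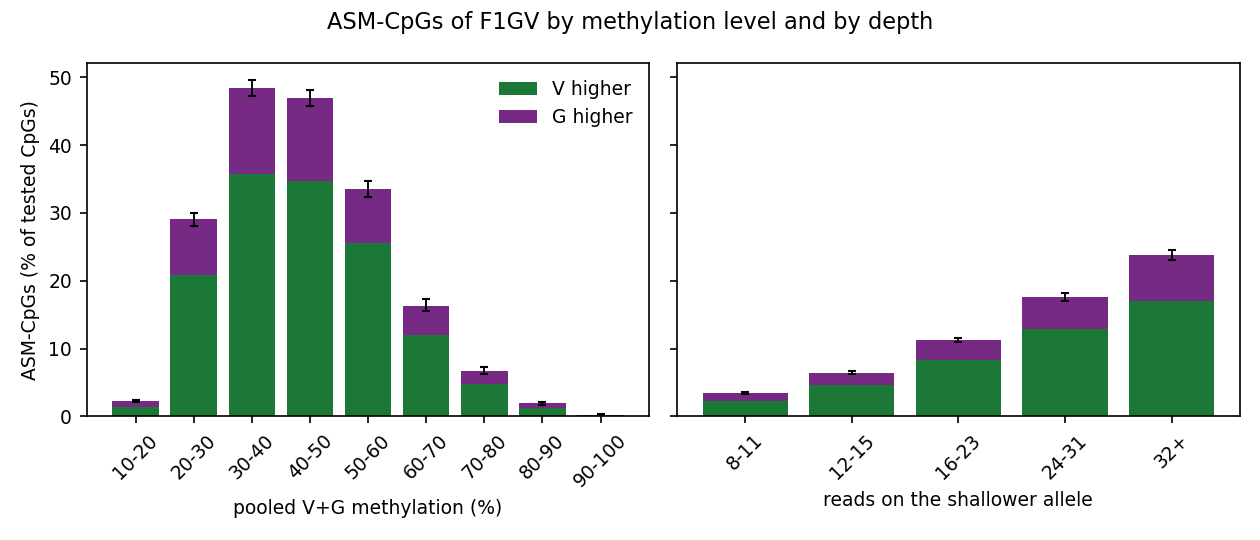
Percent of tested CpGs called ASM, split into V higher and G higher, by pooled V and G methylation (left) and by the reads on the shallower allele (right). Bars start at 0 and the error bars are Wilson 95% intervals of the whole bar. The share called peaks at 48.4% at a level of 30 to 40% and rises with depth from 3.44% to 23.8%. The pooled level limits how far the alleles can differ.

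Tested CpGs that F1VG does not list were shallower and less methylated than the rest, and V was in the majority among their ASM-CpGs too. They had a median of 12 reads on each allele, a mean Va of 29.5% and Ga of 28.0%, and 5.03% of them were called. The CpGs listed in both libraries had medians of 22 V and 21 G reads, a mean Va of 41.4% and Ga of 37.4%, and 11.4% called. V was the higher allele at 69.3% (67.3 to 71.2) of the ASM-CpGs listed only in F1GV and at 72.7% (71.9 to 73.5) of the others.

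The methylated CpGs of F1GV clustered along the scaffolds, and most ASM-CpGs lay within these clusters. A run is defined here as at least 4 tested CpGs with neighbours at most 1000 bp apart. There were 7775 runs on 400 of the 1437 scaffolds with tested CpGs, and they held 93598 (62.2%) of the tested CpGs and 13458 (92.7%) of the ASM-CpGs. CpGs in runs were methylated on average at 53.6% on V and 47.8% on G, and 14.4% of them were called. The 56930 CpGs outside runs averaged 12.5% on V and 13.4% on G, and 1061 (1.86%) were called. Their median pooled level was 11.5% and their median depth 16 V and 15 G reads, against 50% and 21 reads on each allele in runs. Of all tested CpGs at a pooled level of 10 to 20%, 2.24% were called. These shares therefore do not separate place from level and depth. V was the higher allele at 73.8% (73.1 to 74.5) of the ASM-CpGs in runs and at 51.6% (48.6 to 54.6) of those outside, where neither allele was in a clear majority.

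Neighbouring CpGs differed between the alleles in the same direction. For pairs of tested CpGs 2 to 20 bp apart the correlation of Va minus Ga was 0.788 over 22520 pairs. It was 0.526 at 21 to 100 bp, 0.380 at over 100 and up to 300 bp, 0.231 at up to 1000 bp and 0.0722 at up to 5000 bp. Pairs closer than a read length share reads, so the first values partly repeat the same molecules. Where both CpGs were ASM-CpGs, 3333 of 3334 pairs within 20 bp had the same direction, as had 94.3% of those at over 100 and up to 300 bp and 77.3% of those at over 1000 and up to 5000 bp. With 72.2% of all ASM-CpGs higher on V, many pairs share a direction at any distance, and these shares were not tested.

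Runs varied widely in size. The median run had 8 tested CpGs (quartiles 5 to 17, range 4 to 137) and spanned 1603 bp (1011 to 2370, range 8 to 11912). Over runs, the mean level was 41.1% ± 26.8 on V and 38.2% ± 24.5 on G (SD across runs), and the mean of Va minus Ga was 2.92 ± 16 points. The mean level was higher on V in 59.7% of the runs. Both alleles were partial in 2607 runs and high in 1607, V was high and G partial in 1008, and G was high and V partial in 267. G was partial and V bare in 1206 runs, against 946 for the reverse, and such runs also pass the level limit mostly through their partial allele. V was high and G bare in 60 runs, and G was high and V bare in 67, so that the full contrast between an unmethylated and a highly methylated run was about as frequent in either direction.

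For a test of each run, reads were summed over CpGs at least 150 bp apart, so that no read counts more than once, and V was compared with G by Fisher's exact test (two-sided, Benjamini-Hochberg adjustment over 7775 runs). It called 1744 runs (22.4%), called ASM runs here, of which 1239 were higher on V (15.9% of all runs) and 505 on G (6.5%). V was thus higher in 71.0% of the ASM runs (Wilson 68.9 to 73.1, counting error only). At an unadjusted p under 0.05 there were 2518 runs. Reads within a run were assigned to the alleles almost evenly, with V reads at 50.2% of the allele reads in V-higher ASM runs, 49.5% in G-higher ones and 49.8% in the other runs.

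The ASM runs of the 2 directions had like median differences and differed in length, level and the share of wide differences. The V-higher ASM runs had a median difference of 22.0 points (16.8 to 30.6), 16 CpGs and 1996 bp. Their median Va was 62.5% (51.3 to 70.9) and their median Ga 41.2% (18.1 to 52.9). The G-higher ones had a median difference of 22.7 points (17.3 to 36.1), 8 CpGs and 1474 bp. Their median Va was 10.7% (3.55 to 52.1) and their median Ga 56.9% (27.2 to 68.3), so they ranged from low to high levels. Levels are means over all CpGs of a run and the difference is over spaced ones, so the medians do not describe a single typical run. The difference was at least 50 points in 80 V-higher (6.46%) and 73 G-higher (14.5%) ASM runs, and under 20 points in 505 and 186. Of the ASM-CpGs within ASM runs, 95.5% (6043 of 6330) had the direction of a V-higher run and 92.1% (1439 of 1562) that of a G-higher run. Every tested CpG leaned the way of the run in 178 V-higher and 187 G-higher ASM runs. The direction of a run was taken from reads of its own CpGs, so such agreement is partly built in. In 121 V-higher and 146 G-higher ASM runs no single CpG was an ASM-CpG.

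The direction of the ASM runs went with their length, and the shortest runs were also the least methylated. Over all runs of 4 or 5 CpGs, the mean level was 17.2% on V and 18.2% on G. In all runs of at least 41 CpGs it was 62.6% and 51.7%. Length and level were not tested apart. V was higher in 61.9% of the ASM runs with 6 to 10 CpGs, 75.1% of those with 11 to 20, 87.7% of those with 21 to 40 and 92.2% (84.0 to 96.4) of those with at least 41, where the counts were 71 V-higher and 6 G-higher. Of the ASM runs with more than 20 CpGs, 428 of 484 (88.4%, 85.3 to 91.0) were higher on V. Among ASM runs of 4 or 5 CpGs, V was higher in 152 and G in 172 (46.9% V, 41.5 to 52.4). The share in the shortest runs moved with the settings, which also redraw the runs. With a level limit of 20% it was 67.0%, and with at least 16 reads on each allele 68.7%. For runs of more than 20 CpGs the same 2 settings gave 87.8% and 90%. The share called also rose with length, from 11.5% of the 2813 runs of 4 or 5 CpGs to 54.2% of the 142 runs of at least 41. Longer runs sum more spaced CpGs, so smaller differences can be called in them. Over all runs the median size of Va minus Ga stayed between 7.39 and 9.26 points in every length class. Among ASM runs it was 24.1 points in the shortest class and 18.3 in the longest.

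By level, V was in the majority among ASM runs at 20 to 80% and not below. Of the 3022 runs with a mean level under 20%, 8.47% were called, 114 higher on V and 142 on G (44.5% V, 38.6 to 50.7). Of the 616 runs at 20 to 40%, 61.4% were called, with V higher in 64.8% of the ASM runs. V was higher in 81.4% of the ASM runs at 40 to 60% and in 77.0% at 60 to 80%. Of the 165 runs at 80% and above, 13.3% were called, 13 higher on V and 9 on G. The level of a run limits how far its alleles can differ, so the shares called do not show where differences are commoner.

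The share of V-higher ASM runs was lower among wide differences. V was higher in 73.1% of the 691 ASM runs with a difference under 20 points and in 72.9% of the 794 with 20 to 40 points. It was higher in 65.6% of the 160 with 40 to 60 points and in 52.6% (41.6 to 63.3) of the 78 with 60 to 80 points. Of the 21 ASM runs with at least 80 points, 9 were higher on V and 12 on G. Together, ASM runs with at least 60 points were 50 V-higher and 49 G-higher, which is 50.5% V (40.8 to 60.1). With at least 16 reads on each allele that share was 64.0% (57 of 89), and with a level limit of 20% it was 58.8% (94 of 160).

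**Figure D3:**
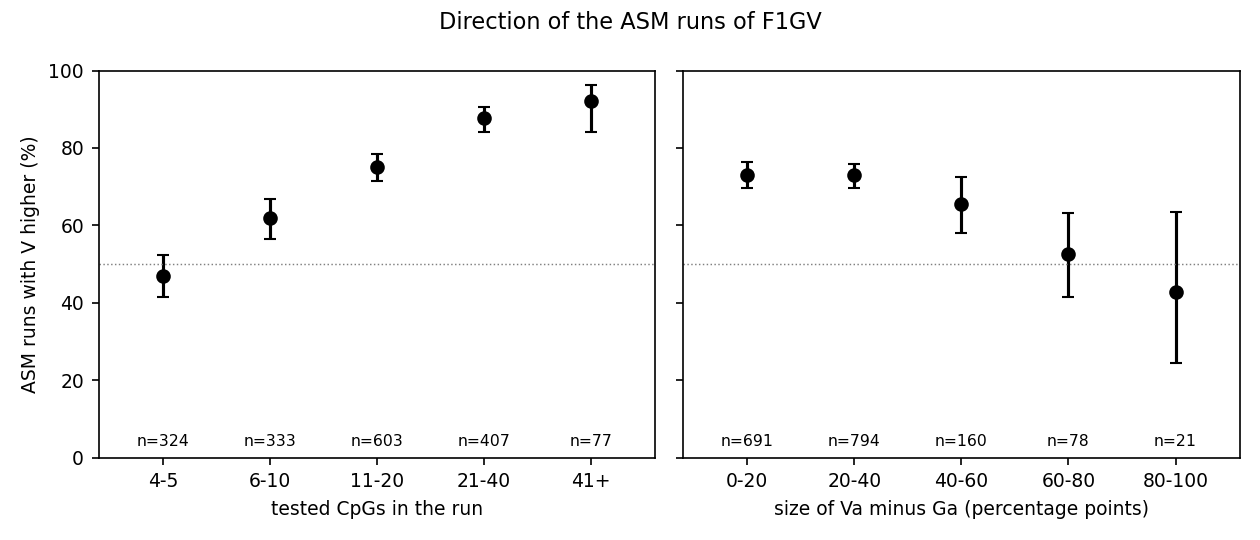
Percent of the ASM runs of F1GV with V higher, by the number of tested CpGs in the run (left) and by the size of Va minus Ga over spaced CpGs in percentage points (right). Points are shares with Wilson 95% intervals, n is the number of ASM runs, and the dotted line is at 50%. The share goes from 46.9% in runs of 4 or 5 CpGs to 92.2% in runs of at least 41, and from 73.1% at differences under 20 points to 42.9% at those of at least 80. Runs of 4 or 5 CpGs were also the least methylated.

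The run with the most CpGs was also the one with the most ASM-CpGs. It lies on SCAFFOLD123 from 1944 to 13743 (positions on the Nv v1.0 scaffolds throughout) and held 137 tested CpGs, of which 107 were ASM-CpGs, all higher on V. Its mean Va was 62.7% ± 24.5 (SD across CpGs) and its mean Ga 8.0% ± 16.4. Over 42 spaced CpGs, 563 of 1008 V reads and 72 of 1024 G reads were methylated (exact test, adjusted p = 1.8e-132). The CpGs at both ends of the run broke the pattern, since G reached 92.9% at the first CpG and 100% close to the last. With the deepest CpG alone the difference of this run was 7.95 points and not called.

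The next V methylated runs had between 37 and 40 V-higher ASM-CpGs. The run on SCAFFOLD35 from 1552740 to 1557860 (68 CpGs, 40 of them called) had a mean Va of 68.1% ± 28.7 and Ga of 19.6% ± 27.5. The run on SCAFFOLD384 from 21307 to 28492 (55 CpGs, 39 called) had 76.2% ± 25 on V and 13.3% ± 23.8 on G. On SCAFFOLD87 from 537027 to 539743 the contrast was cleanest among these 5, with 37 of 39 CpGs called, a mean Va of 78.2% ± 18.3 and a mean Ga of 2.1% ± 4.8 that did not go above 20% at any CpG. Over its 13 spaced CpGs, 197 of 305 V reads and 7 of 287 G reads were methylated (exact test, adjusted p = 1.3e-63).

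The last of the 5, on SCAFFOLD4 from 5218394 to 5225724 (103 CpGs, mean Va 68.4% ± 27.0, mean Ga 40.3% ± 37.8), changed direction at its far end. Its 39 V-higher ASM-CpGs lay 1004 to 6046 bp from the first CpG of the run, with a mean Va of 71.7% and Ga of 4.44%. Its 4 G-higher ASM-CpGs lay together at 7108 to 7229 bp, with a mean Va of 11.1% and Ga of 72.4%. Over spaced CpGs V exceeded G by 26.2 points (exact test, adjusted p = 3.2e-25).

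The runs with G methylated were shorter, and V was close to unmethylated in 4 of the 5 with the most G-higher ASM-CpGs. On SCAFFOLD15 from 649012 to 654257, 38 of 48 CpGs were called, with a mean Va of 3.6% ± 5.8 and Ga of 66.3% ± 29.4, and 8 of 302 V reads against 211 of 333 G reads were methylated over spaced CpGs (exact test, adjusted p = 7.0e-65). Va did not exceed 23.5% at any CpG of this run, and its first CpGs were low on both alleles. On SCAFFOLD34 from 904036 to 908218, G was higher at all 41 CpGs and 34 were called, with a mean Va of 5.9% ± 14.5 and Ga of 69.0% ± 20.8. On SCAFFOLD121 from 126386 to 129286, 19 of 24 CpGs were called (Va 2.5% ± 6.3, Ga 69.8% ± 27.4). On SCAFFOLD141 from 34455 to 36064, G was higher at all 21 CpGs and 16 were called (Va 4.6% ± 6.5, Ga 73.1% ± 21.3).

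A second run on SCAFFOLD34, from 454996 to 458031 (32 CpGs, Va 27.7% ± 35.0, Ga 64.8% ± 23.5), opened with a V-higher ASM-CpG at which 19 of 20 V reads and 2 of 10 G reads were methylated. Its other 18 ASM-CpGs were G-higher and lay 1393 to 2827 bp further on, with a mean Va of 7.18% and Ga of 67.7%.

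The longest runs were not all of this kind. The run on SCAFFOLD40 from 577295 to 585559 (83 CpGs) had a mean Va of 66.6% ± 29.4 and Ga of 59.5% ± 30.6 with 5 V-higher ASM-CpGs, and its difference over spaced CpGs was 7.35 points (exact test, adjusted p = 0.026), which turned to −1.32 with the deepest CpG alone. The run on SCAFFOLD14 from 59942 to 70578 (75 CpGs) had 65.5% ± 27.8 on V and 51.6% ± 34.5 on G, 11 V-higher and 2 G-higher ASM-CpGs, and a difference of 13.9 points (exact test, adjusted p = 1.5e-07) that fell to 0.113 with the deepest CpG alone. The run on SCAFFOLD1 from 7985201 to 7995633 (72 CpGs) had 60.6% ± 33.5 on V and 37.1% ± 36.6 on G. Of its ASM-CpGs, 18 V-higher ones lay 2221 to 5812 bp from its start, a single G-higher one followed at 7194 bp with 0 of 28 V reads and 21 of 25 G reads methylated, and 2 V-higher ones came after it. Its difference was 24.3 points (exact test, adjusted p = 1.8e-15), and −3.25 with the deepest CpG alone.

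Opposite differences met within single runs. ASM-CpGs of both directions were found in 871 of the 3653 runs with any, and 228 runs had at least 2 of each. In the run on SCAFFOLD7 from 685208 to 697120 (62 CpGs), 10 V-higher ASM-CpGs lay 1974 to 4385 bp from the start, with 171 of 223 V reads and 12 of 278 G reads methylated. A block of 6 G-higher ASM-CpGs lay 8881 to 9060 bp from the start, with 8 of 144 V reads and 67 of 96 G reads methylated. Summed over spaced CpGs the run had 45.5% on V and 46.0% on G (exact test, adjusted p = 0.999). It was called V-higher with all CpGs summed, at 8.39 points, and with the deepest CpG alone, at 67.6 points.

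Other mixed runs had the same build. On SCAFFOLD28 from 347876 to 354700 (55 CpGs), 5 V-higher ASM-CpGs at 688 to 2742 bp were followed by 6 G-higher ones at 3251 to 3492 bp, where 2 of 113 V reads and 108 of 136 G reads were methylated, and by 1 more V-higher CpG at 6498 bp. Its summed difference was 7.01 points (exact test, adjusted p = 0.18), and the stratified Cochran-Mantel-Haenszel test called it at the same difference. With all CpGs summed the difference was −1.38 and with the deepest CpG alone −13.4. On SCAFFOLD2 from 6741147 to 6751890 (65 CpGs), 6 G-higher ASM-CpGs at 2660 to 3765 bp preceded 9 V-higher ones at 5489 to 10743 bp, with 129 of 197 V reads and 4 of 208 G reads methylated in the latter. The summed difference was 3.74 points (exact test, adjusted p = 0.38), and −3.98 with the deepest CpG alone.

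No ASM-CpG was found in 4122 of the 7775 runs. The 3 with the most CpGs were the run on SCAFFOLD10 from 2751279 to 2757443 (44 CpGs, Va 55.8% ± 32.9, Ga 54.7% ± 34.9), that on SCAFFOLD16 from 520678 to 522840 (38 CpGs, 78.4% ± 19.4 and 80% ± 24.5) and that on SCAFFOLD19 from 2279467 to 2281134 (35 CpGs, 76.1% ± 27.3 and 73.0% ± 27.5). Their differences over spaced CpGs were 1.94, −5.02 and −2.01 points (exact test, adjusted p = 0.80, 0.46 and 0.77). The sign of these uncalled differences was not stable, at −3.62 for SCAFFOLD10 and 0.868 for SCAFFOLD19 with all CpGs summed.

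**Figure D4:**
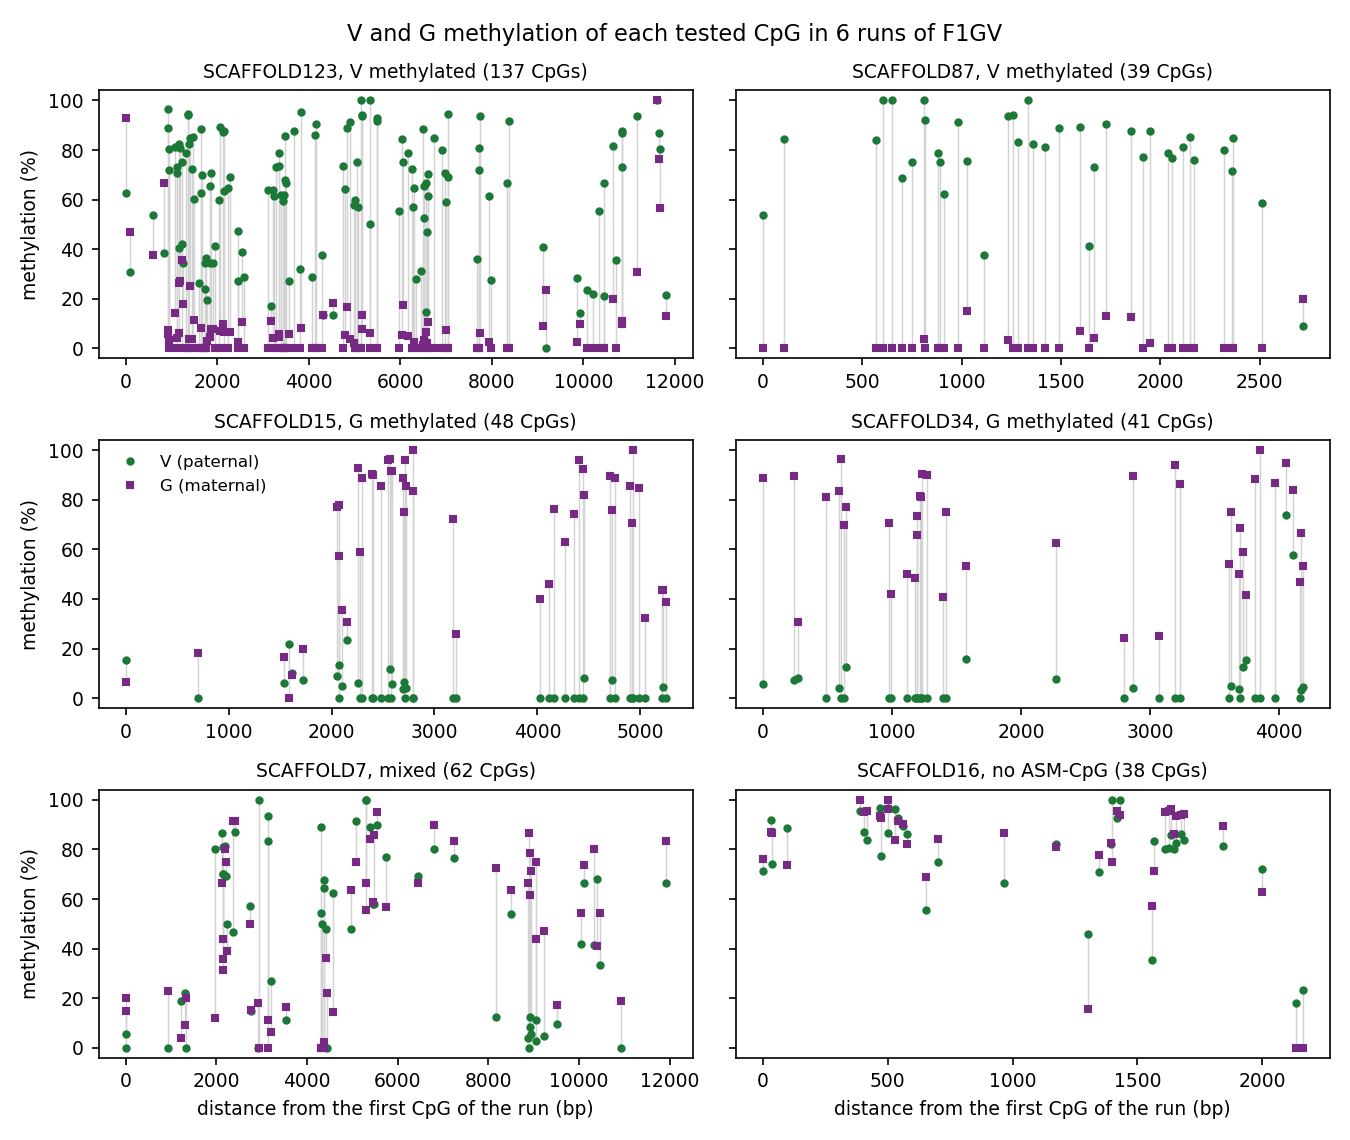
V (circles) and G (squares) methylation in percent at each tested CpG of 6 runs of F1GV, against the distance in bp from the first CpG of the run, with grey lines joining both alleles of a CpG. V lies above G along the SCAFFOLD123 and SCAFFOLD87 runs (107 and 37 V-higher ASM-CpGs), G above V along the SCAFFOLD15 and SCAFFOLD34 runs (38 and 34 G-higher ones), the order changes within the SCAFFOLD7 run, and the alleles overlap in the SCAFFOLD16 run.

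The runs were spread over many scaffolds, and their direction varied between scaffolds. SCAFFOLD1 had 484 runs, of which 99 were ASM runs (73 higher on V and 26 on G). SCAFFOLD2 had 347 (43 and 33 ASM runs), SCAFFOLD3 285 (38 and 14), SCAFFOLD4 283 (44 and 14) and SCAFFOLD16 261 (46 and 18), and these 5 held 21.4% of all runs. Among the 40 scaffolds with at least 50 runs, the share called went from 11.1% on SCAFFOLD36 to 33.9% on SCAFFOLD29 with a median of 19.9%. More ASM runs were higher on V than on G on 38 of the 40. SCAFFOLD35 had the highest share of V among its ASM runs (24 V and 2 G, 92.3%) and SCAFFOLD20 the lowest (5 V and 12 G, 29.4%). These scaffold extremes were picked by value and got no test.

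The share of neighbouring ASM runs with the same direction fell with the gap between them. Consecutive ASM runs with a gap of over 1000 and up to 5000 bp had the same direction in 73.9% of 283 pairs (191 V-V, 18 G-G, 74 mixed). The share was 66.2% of 320 pairs at gaps of up to 20000 bp, 61.4% of 502 pairs at gaps of over 20000 and up to 100000 bp and 53.7% of 387 pairs at wider gaps. As 71.0% of all ASM runs were V-higher, many pairs share a direction at any distance, and these shares were not tested.

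Some runs lay wholly outside what F1VG lists, namely 77, of which 8 were called, 2 higher on V and 6 on G. Over all 7775 runs, 22.4% were called, with V higher in 71.0% of the ASM runs. Tested CpGs listed only in F1GV had a median of 12 reads on each allele, and low depth limits the calls. On SCAFFOLD8 from 377686 to 377883, V was higher at all 5 CpGs (Va 61.8% ± 27.4, Ga 6.9% ± 7.8), and 16 of 27 V reads and 2 of 28 G reads were methylated at spaced CpGs (exact test, adjusted p = 4.3e-04), a call lost with the deepest CpG alone. On SCAFFOLD11 from 1284025 to 1285916 (4 CpGs, no ASM-CpG) the counts were 8 of 27 and 0 of 36 (exact test, adjusted p = 0.0044), and the call was lost when all CpGs were summed and with the deepest CpG alone. On SCAFFOLD1037 from 20042 to 20232, G was higher at all 6 CpGs and 5 were ASM-CpGs (Va 0.90% ± 2.2, Ga 67.1% ± 28.9), with 0 of 32 V reads and 30 of 35 G reads methylated (exact test, adjusted p = 2.1e-12). The other G-higher runs named were one on SCAFFOLD7 from 1546459 to 1548767 (6 CpGs, 2 of them ASM-CpGs, 11 of 70 and 36 of 83 reads) and one on SCAFFOLD1 from 557304 to 557338 (4 CpGs within 34 bp, 0 of 18 and 4 of 9 reads, exact test, adjusted p = 0.035).

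The parents of the alleles are switched in the reciprocal library, where V is maternal. In F1VG, 1259 of the 1632 ASM runs measured there (77.1%) had the same sign of Va minus Ga, against 3900 of all 7037 runs measured in both libraries (55.4%). For V-higher ASM runs the median was 22.2 points in F1GV and 11.8 in F1VG, and for G-higher ones −22.0 and −9.93. The runs were chosen as called in F1GV, which favours larger values there. Larger differences were repeated more often, with the same sign in 69.1% of the runs under 20 points, 78.9% of those at 20 to 40, 94.9% of those at 40 to 60, 64 of 64 at 60 to 80 and 11 of 11 at 80 points and above.

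Among the runs named above, the SCAFFOLD87 run had 83.4 points in F1GV and 75.4 in F1VG over the spaced CpGs that both libraries list. The SCAFFOLD123 run had 46.6 and 38.6 points, and the SCAFFOLD15 run −67.2 and −56.1. In the SCAFFOLD141 run from 34455 to 36064 the values were −71.1 and −70.5. None of these 4 passed the interaction test below, whereas both G methylated runs named on SCAFFOLD34 did. The SCAFFOLD123 run also passed it with all shared CpGs summed (55.2 and 42.2 points), where reads count more than once.

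Whether a run's Va minus Ga differed between the libraries was tested as an allele-by-library interaction (likelihood ratio test with 1 degree of freedom, Benjamini-Hochberg adjustment over the 7037 runs with at least 2 shared spaced CpGs). It called 334 runs (4.75%), and 1241 at an unadjusted p under 0.05. Va minus Ga was more toward V in F1GV than in F1VG in 224 of the 334 and more toward G in 110, with a median change of 28.0 points (23.5 to 36.3). The signs were opposite in 249 of them, but in only 10 was the difference at least 20 points in both libraries. The mean over all shared CpGs changed in the same direction in 323 of the 334, and 252 were also called with all shared CpGs summed. The shared CpGs include the spaced ones on which the runs were called, so this agreement is partly built in. With 1 library per cross, this compares 2 libraries and not the crosses.

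By length, the mean of Va minus Ga in runs of at least 41 CpGs was 9.55 ± 16.1 points in F1GV and 5.2 ± 15.8 in F1VG (SD across 142 runs). In runs of 11 to 20 CpGs it was 5.15 ± 17.9 and 3.14 ± 17.3, and in runs of 4 or 5 CpGs −0.38 ± 13.7 and −0.24 ± 10.1. Longer runs thus leaned toward V on average in both libraries, and the gap between the 2 means was not tested. The interaction was called in 15 of the 142 longest runs (10.6%), all 15 more toward V in F1GV. It was called in 2.12% of the runs of 4 or 5 CpGs and in 4.75% of all 7037 runs. Of all 334 called, 224 were more toward V. Longer runs sum more spaced CpGs, so smaller changes can be called in them.

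In the 3 runs with the smallest interaction p the size of the change depended on the CpGs used. On SCAFFOLD5 from 3334065 to 3336320 (11 CpGs, 10 of them V-higher ASM-CpGs), Va minus Ga was 57.7 points in F1GV and 10.4 in F1VG over 5 spaced CpGs, and its mean over all 10 shared CpGs was 60.2 and 31.8. At position 3334415, 24 of 28 V reads and 0 of 34 G reads were methylated in F1GV, against 7 of 31 and 11 of 22 in F1VG. At 3334977 in the same run the libraries were alike, with 23 of 23 V and 2 of 29 G reads in F1GV and 20 of 20 and 2 of 18 in F1VG. On SCAFFOLD141 from 162013 to 164264 (38 CpGs, 10 V-higher ASM-CpGs), the difference was 28.5 points in F1GV and −12.2 in F1VG over 9 spaced CpGs. Over all 35 shared CpGs the means of Va minus Ga were 16.4 and 0.872 points, and with the reads of all 35 summed the differences were 14.9 and −4.11.

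On SCAFFOLD9 from 118116 to 118977 both alleles were high in F1GV (18 CpGs, Va 82.2% ± 19.8, Ga 85.9% ± 15.6), and the difference over shared spaced CpGs was −18.4 points, against 28.1 in F1VG. The first CpG was the only ASM-CpG of the run, with 8 of 48 V and 25 of 34 G reads methylated in F1GV and 11 of 24 and 0 of 37 in F1VG. Over all 17 shared CpGs the means were −4.30 and 11.5 points, and with the deepest CpG alone the difference in F1GV was 5.34.

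**Figure D5:**
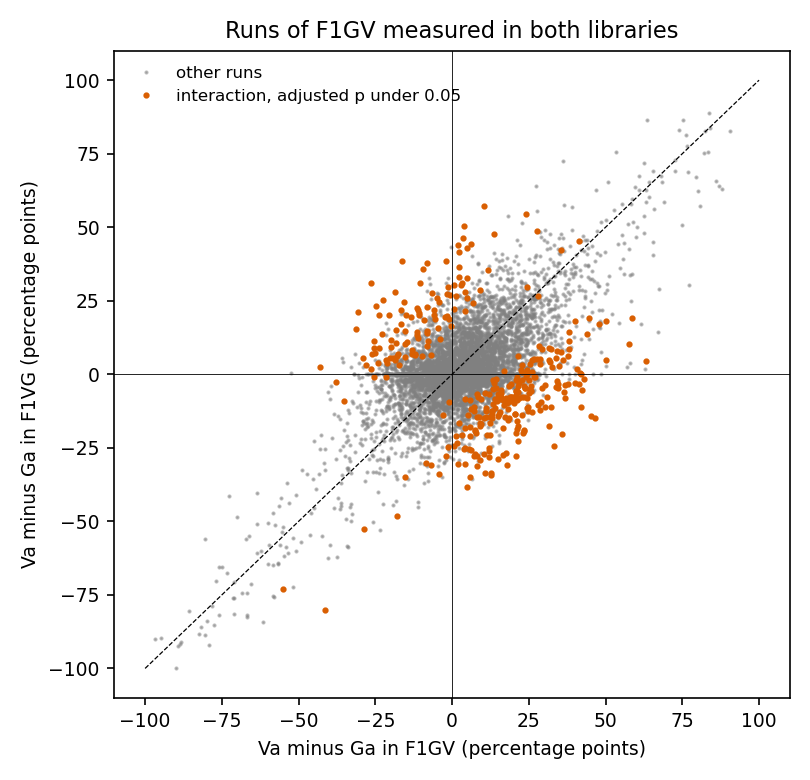
Va minus Ga of each of the 7037 runs in F1GV (x axis) and F1VG (y axis), in percentage points over the spaced CpGs listed in both libraries, with the 334 runs past the interaction test in orange and equality as a dashed line. Of the orange points, 224 lie below the dashed line, toward V in F1GV, and 110 above it.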

How the data were processed

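Reads from 1 WGBS-seq library per cross were processed by the authors, who per the submitters' processing notes used CASAVA 1.8.2, FastQC, Trimmomatic and BWA, aligned single-end reads to converted Nv and Ng v1.0 genomes, kept unique hits and assigned alleles by SNPs and indels. They deposited raw counts, per CpG, of the methylated and the unmethylated reads for all, V and G reads, at CpGs with at least 8 reads on each allele. The step behind their correction of reference bias is not given in the sources used here, and whether counts sum both strands was not tested.

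Levels, Fisher's exact tests, the interaction test and Wilson 95% intervals came from scripts (Numba 0.67.0, pandas 2.3.3, SciPy 1.17.1, NumPy 2.4.6, under Python 3.11.15) checked on simulated data, and plotted with Matplotlib 3.10.9. Samples were grouped by their labels. The members, lists and tests were chosen with earlier results of these data known. Named runs were the 5 with the most tested CpGs, the 5 V and 5 G methylated ASM runs with the most ASM-CpGs, 3 mixed runs, 3 runs with no ASM-CpG, up to 3 in each direction absent from F1VG, and the 3 with the smallest interaction p. Named CpGs were the 3 with the smallest p in each direction, shown with their runs, and named scaffolds the 5 with the most runs, beside 4 extremes chosen after their values were seen. Alternatives changed the level limit, depth, threshold, definition of a run and test of a run. Gene names and sequences are not given, as no genome or annotation of the v1.0 scaffolds was used here. The RNA-seq data were not analysed here.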

Additional observations from a re-analysis of the deposited data

Results flagged for a closer look

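Runs were picked out here because Va minus Ga differed between F1GV and F1VG in the interaction test at an adjusted p under 0.05 (likelihood ratio test). There were 334 such runs. Of the runs named above, 7 were among them. The change, F1GV minus F1VG, was 15.3 points for the SCAFFOLD14 run from 59942 to 70578, which went from −2.07 in F1VG to 13.2 in F1GV. It was 18.1 points for the SCAFFOLD34 run from 904036 to 908218 (−73.1 in F1VG and −55.0 in F1GV) and 23.6 for the SCAFFOLD34 run from 454996 to 458031 (−52.4 and −28.8), both G-higher in either library. The mixed SCAFFOLD28 run from 347876 to 354700 changed by 18.6 points over 13 spaced CpGs (−5.10 and 13.5), but by 2.26 in the mean over all 40 shared CpGs (3.59 and 5.85), and it did not pass the test with all of these summed. The runs with the smallest p changed by 47.4 points (SCAFFOLD5 from 3334065 to 3336320), −46.6 (SCAFFOLD9 from 118116 to 118977) and 40.7 (SCAFFOLD141 from 162013 to 164264). In the mean over all shared CpGs these 3 changes were 28.4, −15.8 and 15.6 points.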

How the results depend on the processing

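No replicate could be left out and no paired analysis was possible because each cross has 1 library. Depth limits the calls, since at the median of 18 reads per allele a difference from an unmethylated allele had to reach 44.4 points. With a level limit of 5%, V was higher at 73.8% of the ASM-CpGs, the mean of Va minus Ga was 0.335, there were 22473 runs and 1042 ASM runs, and V was higher in 57.6% of these. With a limit of 20%, the mean was 7.66, with 4814 runs and V higher in 78.2% of the ASM runs and in 67.0% of those with 4 or 5 CpGs. Without a limit there were 7533 ASM-CpGs, 75.5% higher on V, and the mean turned to −0.0252. With 16 reads per allele the mean was 5.15, there were 4487 runs, and V was higher in 77.5% of the ASM runs, 68.7% of those with 4 or 5 CpGs and 64.0% of those of at least 60 points. Without CpGs absent from F1VG the mean was 3.99. At an adjusted p under 0.01, V was higher at 74.0% of the ASM-CpGs and in 74.0% of the ASM runs, and 124 runs passed the interaction test. A minimum of 20 points left 1053 ASM runs. The share of V in ASM runs was 73.6% with gaps up to 500 bp, 68.5% with gaps up to 2000 bp, 68.3% with at least 3 CpGs (11831 runs) and 76.1% with at least 6 (4962 runs). Summing all CpGs of a run gave 2657 ASM runs and 833 interaction runs, with reads counted more than once. With the deepest CpG alone the share was 65.1%, and Va minus Ga changed sign to −3.25 (SCAFFOLD1 run from 7985201), 5.34 (SCAFFOLD9) and −1.32 (SCAFFOLD40) in called runs, and to −3.98 (SCAFFOLD2), 67.6 (SCAFFOLD7 run from 685208), −20.8 (SCAFFOLD10) and −13.4 (SCAFFOLD28) in uncalled ones. With all CpGs summed the sign changed in uncalled runs to 8.39 (SCAFFOLD7), −3.62 (SCAFFOLD10), 0.868 (SCAFFOLD19) and −1.38 (SCAFFOLD28). The cause of these shifts was not tested. The shares of V for the shortest, the longest and the most different ASM runs were added after seeing the data, with their alternatives. Of the other values compared, 47 on counts and shares were grouped as kept, although some of these counts shifted. ASM-CpGs were 10691 with a level limit of 5%. ASM runs were 2240 with the Cochran-Mantel-Haenszel test and 1392 with gaps up to 2000 bp. Interaction runs were 473 with a z test of the difference of the differences. On named runs, 76 values kept their direction and side of the threshold, and 6 gained or lost a call with no change of sign.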
